A study of Mus musculus with 14 samples.

Results

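Expression of 10 genes for lipid- and xenobiotic-sensing transcription factors was followed in the liver of male and female CD-1 mice, an outbred strain, whose ages were 3, 4 or 8 wk. The genes were Nr1i3, Nr1i2, Ahr, Ppara, Pparg, Nr1h3, Nr1h4, Nr0b2, Nr5a2 and Rxra, grouped by the kind of molecule their proteins sense. They were found on the array through the RefSeq accession of each probe, which gave 17 probes of 39429. The 10 genes stand among 19751 genes that the array's accessions name. Where a gene had more than 1 probe, the brightest one over all arrays gave its main value, and the other probes are given beside it.

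These proteins bind small molecules and then turn genes on or off. CAR (Nr1i3) and PXR (Nr1i2) sense drugs, steroids and bile acids and control drug-metabolising enzymes, PPARα (Ppara) and PPARγ (Pparg) sense fatty acids, LXRα (Nr1h3) senses oxysterols and FXR (Nr1h4) senses bile acids. Most of them bind DNA as a dimer with RXRα (Rxra). SHP (Nr0b2) has no DNA-binding domain and represses other receptors, among them LRH-1 (Nr5a2), a driver of bile acid synthesis genes. AHR (Ahr), the dioxin receptor, is by structure a bHLH-PAS protein and not a nuclear receptor, and belongs here by the kind of ligand it senses.

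The groups were 3 wk males (M3) and females (F3), in pools of liver RNA from 5 mice, and 4 wk (M4, F4) and 8 wk (M8, F8) males and females, in pools from 6 mice. Each of the 6 groups was read as 2 pools, numbered 1 and 2, on the basis of the arrays and of the methods, by which the pools of 1 comparison took up all mice of a group. The spread between individual mice was therefore not seen, and 2 pools limit the precision. The labels give no treatment or transgene, and the hour of day at which livers were taken was not given in the sources used here. Pools were hybridised in pairs to two-colour Agilent arrays in 7 comparisons, on 2 arrays each with the dyes exchanged, which made 14 arrays. Males were compared with females at each age (M3/F3, M4/F4 and M8/F8), and 8 wk mice with younger ones among males (M8/M3 and M8/M4) and among females (F8/F3 and F8/F4). Every value below is a log2 ratio of the first group over the second, so that 1 is a doubling. Across channels 55.2% to 77.2% of spots were well above background, and 0 spots were saturated. All 17 probes were well above background in all 28 channels. All 8 hepatocyte markers checked, among them Alb and Ttr, could be tested in every comparison.

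"Passed" stands for an adjusted p under 0.05 in limma, a linear model fitted to all probes, with Benjamini-Hochberg adjustment over all probes and comparisons. "Called" adds a change over 1.5-fold. Each ± is the SD between the 2 arrays of a comparison, while SE is the error of the fit. Array values hold the dye effect, which the model removes.

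The sequences that follow belong to the genes on which the results turn. The array reports Nr1i3 through a 60-base probe, whose GC content was 45.0% and which had 1 of the 3 forward reading frames free of stop codons. Its position in the genome was not analysed here.
Nr1i3 probe: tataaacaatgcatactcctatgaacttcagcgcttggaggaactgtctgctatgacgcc
The 250 bases before the start site of Nr1i3, Nr0b2 and Pparg are given because Nr1i3 and Pparg had the widest range between groups and Nr0b2 was the 1 member that passed a test of a sex difference in its age change. They are RefSeq's, build GRCm38.p6, written along the gene's strand, and lie just upstream of the first exon of that transcript. Capitals mark matches on either strand to the hexamer that nuclear receptors bind (AGGTCA), an E-box (CACGTG), a STAT site (TTCNNNGAA) or the AHR core (GCGTG, which reads CACGC on the other strand). The Nr1i3 stretch is chr1:171213720-171213969 (+), the Nr0b2 stretch chr4:133553126-133553375 (+), and the stretches of 2 Pparg start sites chr6:115360894-115361143 (+) and chr6:115362099-115362348 (+). The other of the 3 Pparg start sites, whose stretch held no match to these motifs, is not shown.
Nr1i3 promoter: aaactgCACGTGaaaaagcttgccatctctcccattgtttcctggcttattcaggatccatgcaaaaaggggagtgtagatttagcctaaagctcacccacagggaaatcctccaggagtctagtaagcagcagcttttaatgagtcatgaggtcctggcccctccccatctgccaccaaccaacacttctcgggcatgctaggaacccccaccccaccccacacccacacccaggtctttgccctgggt
Nr0b2 promoter: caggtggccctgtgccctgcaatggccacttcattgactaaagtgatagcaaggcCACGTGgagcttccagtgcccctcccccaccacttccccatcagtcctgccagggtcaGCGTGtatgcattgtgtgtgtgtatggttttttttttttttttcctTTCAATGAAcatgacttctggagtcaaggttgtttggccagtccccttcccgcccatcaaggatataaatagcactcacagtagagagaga
Pparg promoter 1: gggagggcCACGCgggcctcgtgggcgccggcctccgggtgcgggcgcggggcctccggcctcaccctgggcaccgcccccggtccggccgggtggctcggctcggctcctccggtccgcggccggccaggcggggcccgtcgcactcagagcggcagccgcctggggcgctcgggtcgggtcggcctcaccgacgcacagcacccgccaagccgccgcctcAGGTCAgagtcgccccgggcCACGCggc
Pparg promoter 2: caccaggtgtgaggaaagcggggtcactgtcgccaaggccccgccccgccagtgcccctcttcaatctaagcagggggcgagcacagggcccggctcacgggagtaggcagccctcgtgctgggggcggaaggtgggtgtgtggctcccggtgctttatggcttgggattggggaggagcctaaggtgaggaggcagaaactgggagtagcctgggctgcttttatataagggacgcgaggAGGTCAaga
Promoters were found for 9 of the 10 genes, 14 start sites in all, some of which overlap. The hexamer was in 5 of these 14 stretches and in 14.0% of all 32851 RefSeq promoters of the same length. Its extended form (CAAGGTCA), which contains it, was in 0 of 14, against 1.33%. The E-box was in 2 of 14 (6.02% of all), in Nr1i3 at 244 to 239 bases and in Nr0b2 at 195 to 190 bases before the start. The STAT site was in 1 of 14 (7.02%), the Nr0b2 stretch, and the AHR core in 4 of 14 (28.2%). These matches describe letters and were not tested for binding.

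Sex differences among the 10 genes passed mainly at 8 wk. In M3/F3 0 of 10 members passed, while 2.88% of all genes tested did (1.24% higher and 1.63% lower in males). Nr1i3 came closest there, with a limma p of 0.0193 before adjustment and 0.101 after it. In M4/F4 Ahr alone passed (1 of 10, lower in males), where 7.91% of all genes passed (3.45% higher and 4.46% lower in males). In M8/F8 4 of 10 passed, against 21.8% of all genes. Pparg and Nr0b2 were higher in males (2 of 10, 10.3% of all genes), and Nr1i3 and Ahr were lower (2 of 10, 11.6%). Of these, Nr1i3 and Pparg were over 1.5-fold apart (2 of 10, 6.42% of all genes).

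The age comparison in which most members passed was that of males from 3 to 8 wk. There 6 of 10 passed (42.0% of all genes), 5 of them higher at 8 wk (21.7% of all genes) and 1, Ahr, lower (20.3%). In females 3 of 10 passed over the same span (33.7%), all 3 higher at 8 wk (17.0%, with 16.6% of all genes lower), so their share was close to that of all genes. From 4 to 8 wk 2 of 10 passed in males (29.6%), Pparg higher and Ahr lower, where 14.8% of all genes were higher and 14.8% lower. In females 4 of 10 passed over that span (21.3%), 3 higher (10.6%) and 1, Nr0b2, lower (10.7%). Changes over 1.5-fold were those of Ahr and Pparg in males from 3 to 8 wk (17.9% of all genes), of Nr1i3 in females from 3 to 8 wk (11.7%), and of Pparg from 4 to 8 wk in males (10.8%) and females (6.02%). Comparisons with a group in common were read as sharing its pools, so their values are set side by side and not counted as separate evidence. The members' median log2 ratio was highest in M8/M3, at 0.34, where all genes tested had a median of 0.01. Nr1i2, Nr1h3 and Nr1h4 passed in none of the 7 comparisons and the other members in at least 1. The share of all genes that passed at least once was not taken, and 42.0% did in M8/M3 alone.

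**Figure D1:**
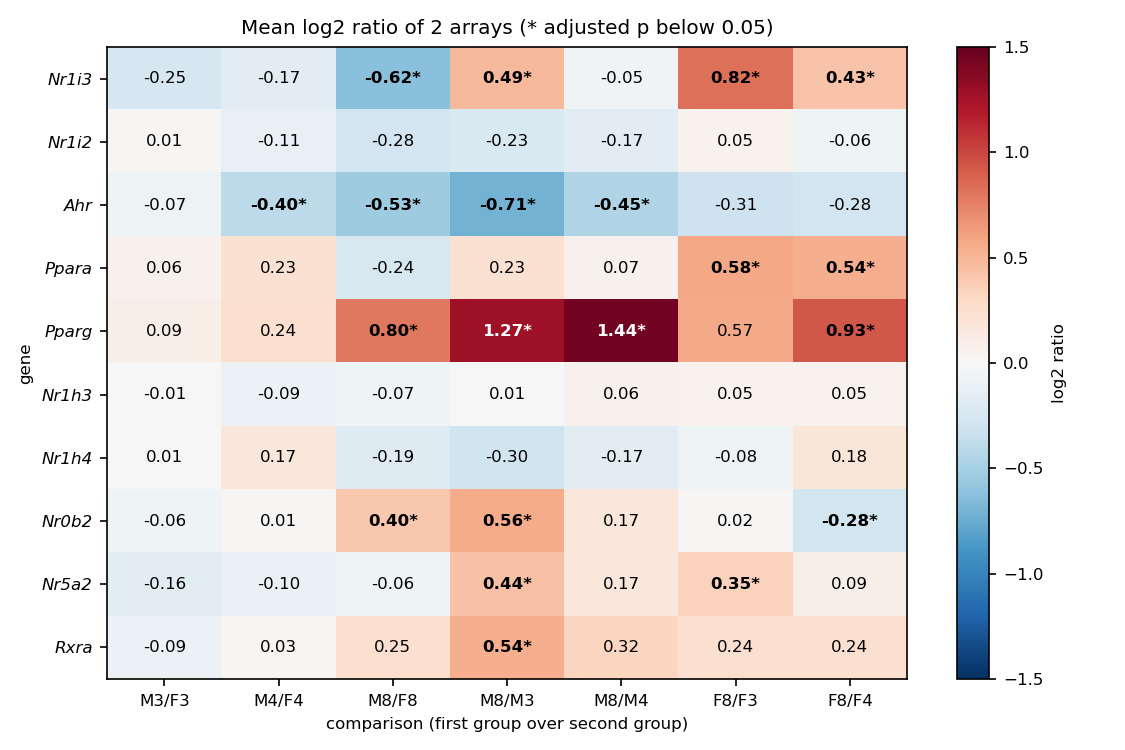
Mean log2 ratio of each of the 10 genes (vertical axis, by role) in each of the 7 comparisons (horizontal axis), as colour, with a star where the adjusted p was under 0.05. The Pparg row holds the largest ratios, 1.27 in M8/M3 and 1.44 in M8/M4, and the rows of Nr1i2, Nr1h3 and Nr1h4 hold no star.

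In the heat map of mean ratios, 4 members carry a star in M8/F8, 2 in each direction, and 1, Ahr, in M4/F4. The panels of group levels give the same data pool by pool, each level relative to the mean of the 6 groups for that gene. The range of the 6 group means was 3.26-fold for Pparg, 2.14-fold for Nr1i3 and 1.77-fold for Ahr, and least for Nr1h3.

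**Figure D2:**
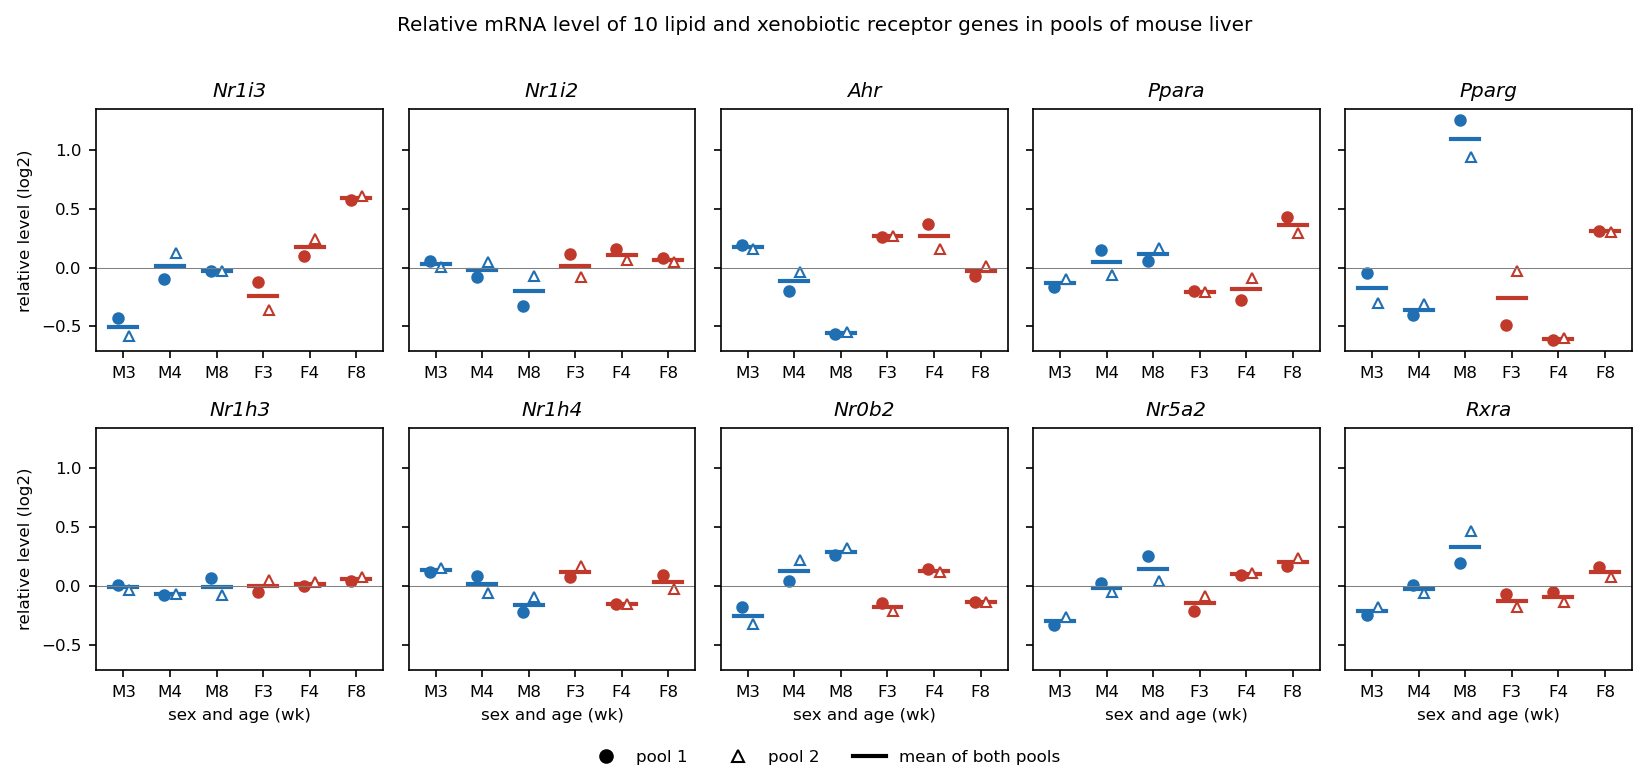
Level of each of the 10 genes in each of the 6 groups (log2, relative to the mean of the groups), males in blue and females in red, with pool 1 as filled circles, pool 2 as open triangles and the mean as a bar. Both M8 pools lie above every other pool for Pparg (1.25 and 0.94), both F8 pools above every other pool for Nr1i3 (0.57 and 0.61), and both M8 pools below every other pool for Ahr (-0.56 and -0.55).

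Nr1i3, the gene of the xenobiotic receptor CAR, was highest in adult females and lowest in 3 wk males. The pools stood at 0.57 and 0.61 in F8, 0.10 and 0.24 in F4, -0.10 and 0.12 in M4, -0.03 and -0.03 in M8, -0.12 and -0.36 in F3, and -0.43 and -0.58 in M3. F4, M4 and M8 overlapped in that order, while F8 lay above F4, M8 above F3 and F3 above M3 with no overlap. The M8/F8 arrays read -0.50 and -0.74. The mean was -0.62 ± 0.17 (SD, n = 2), which is 1.54-fold higher in F8 (SE 0.08, limma adjusted p = 0.00383). At younger ages females also had the higher mean, by -0.25 in M3/F3 (adjusted p = 0.101, limma) and -0.17 in M4/F4 (0.266), and neither passed.

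With age, Nr1i3 rose in females. The F8/F3 arrays read 0.61 and 1.03, a mean of 0.82 ± 0.30 or 1.77-fold (limma adjusted p = 0.00135), and the F8/F4 arrays read 0.39 and 0.47, a mean of 0.43 (adjusted p = 0.0161). In males it rose from 3 to 8 wk by 0.49, with arrays at 0.30 and 0.67 (adjusted p = 0.01), and not from 4 to 8 wk (-0.05, adjusted p = 0.871). Male minus female change was -0.34 from 3 to 8 wk (95% interval of -0.61 to -0.06, adjusted p = 0.19 in limma) and -0.48 from 4 to 8 wk (-0.76 to -0.20, adjusted p = 0.129), so a sex difference in the change itself did not pass in this fit. The second Nr1i3 probe passed in M8/F8 (-0.53, adjusted p = 0.0364) and F8/F3 (0.70, adjusted p = 0.0128) but missed the threshold in M8/M3 (0.38, 0.105) and F8/F4 (0.35, 0.133). M8/M3 did not pass without its array 2 (0.38, adjusted p = 0.109), nor F8/F4 without array 1 (0.37, 0.144) or array 2 (0.48, 0.0704), without a dye term in the model (0.43, 0.0522), or with the shared pools in a replicate block (0.43, 0.0588).

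Nr1i2, which encodes PXR, the main sensor of steroid-like drugs and inducer of Cyp3a enzymes, passed in 0 of the 7 comparisons. Its largest ratio was in M8/F8, where the arrays read -0.41 and -0.16, a mean of -0.28 (limma adjusted p = 0.137). In a fit of 6 group means, which like the main fit takes arrays that share pools as independent, it passed there (-0.27, 0.0251). The 6 group means spanned 1.24-fold, from F4 down to M8, and each group overlapped the next.

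Ahr was lowest in adult males. The pools stood at 0.37 and 0.16 in F4, 0.26 and 0.26 in F3, 0.19 and 0.16 in M3, -0.07 and 0.01 in F8, -0.20 and -0.04 in M4 and -0.56 and -0.55 in M8. M8 lay below M4 with no overlap, F8 overlapped M4, and F8 lay below M3. The M8/M3 arrays read -0.74 and -0.69, a fall of 1.64-fold in males (mean -0.71 ± 0.04, SE 0.10, limma adjusted p = 0.0048). The M8/M4 arrays read -0.38 and -0.52 (mean -0.45, adjusted p = 0.0279).

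Females had more Ahr than males at 8 wk, where the arrays read -0.48 and -0.58 and the mean was -0.53 or 1.44-fold (adjusted p = 0.0152, limma). At 4 wk the arrays read -0.60 and -0.19 with a mean of -0.40 (adjusted p = 0.044). In females the age ratios of -0.31 (F8/F3, 0.0989) and -0.28 (F8/F4, 0.126) had the male sign and did not pass. The other Ahr probe was dim, with signals of 42 to 132.5, and passed in M8/F8 (-0.48, adjusted p = 0.00293), M8/M3 (-0.55, 0.00172) and M8/M4 (-0.53, 0.00197) but not in M4/F4 (-0.07, 0.588). Without array 1 or array 2 in turn, Ahr read -0.60 (0.0627) and -0.46 (0.129) between adult males and females, and -0.52 (0.0963) and -0.38 (0.21) in M8/M4. Without array 1 it also read -0.17 (0.364) in M4/F4 and -0.67 (0.052) in M8/M3. With ratios centred on the median in place of loess it read -0.41 (0.061) in M4/F4 and -0.42 (0.0594) in M8/M4.

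Markers of Kupffer cells and other macrophages were low in the same group as Ahr. All 7 that were tested were lower in M8 than in F8 (median -0.59) and lower in M8 than in M4 (median -0.53), all passing the test. Of all genes 11.6% and 14.8% were lower in these comparisons. All 7 also read lower in M8 than in M3 (median -0.44), where 3 of 7, Marco, Adgre1 and Csf1r, passed (20.3% of all genes). Between the sexes at younger ages their median was -0.28 in M3/F3, with 0 of 7 passing, and -0.27 in M4/F4, with 1 lower. Ahr read -0.07 and -0.40 in these comparisons. Their summed signal ran from 19078 to 27629 in the 6 channels of M8 and from 30742 to 45557 in those of F8. In whole liver, fewer cells of a type and less RNA per cell cannot be told apart. The part of these cells in the Ahr values was not tested. Hepatocyte markers also leaned to F8: 3 of 8 (Alb, Cps1 and Tat) were lower in M8/F8 and 0 higher, where 11.6% and 10.3% of all genes were. Their median was -0.28, and their part in the lower Nr1i3 and Ahr of M8 was not tested.

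Of 13 listed targets of CAR and PXR 5 were lower and 2 higher in M8/F8, with a median of -0.02, where 11.6% of all genes were lower and 10.3% higher. The other 6 did not pass. The lists, like the members, were chosen with earlier results of these data known. Their counts, here and in the other paragraphs, describe the lists beside the shares of all genes and test nothing. Cyp2b10, the classical CAR-induced cytochrome P450, read -2.11 and -2.62 on the 2 arrays (mean -2.36, limma adjusted p = 0.000239), and Alas1, the first enzyme of heme synthesis, -1.73 and -1.40 (mean -1.57, 0.00205). Cyp2b10 fell in males from 3 to 8 wk (-1.92, 0.000449) and rose in females (0.96, 0.00584). Nr1i3 itself was higher at 8 than at 3 wk in both sexes, so in males the receptor's main probe and Cyp2b10 moved in opposite directions over that span.

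Some targets on the list also changed with age. Abcc3, a basolateral exporter of conjugates, rose from 3 to 8 wk in males (1.72, limma adjusted p = 0.00013) and females (1.22, 0.000348). Gsta1, a glutathione S-transferase, rose in males over the same span (arrays 2.98 and 4.22, mean 3.60, 0.0102). Over that span 4 targets were higher and 5 lower in males, and 4 higher and 2 lower in females, of 13, against the shares of all genes given above for these comparisons. Probes of the Cyp2b, Cyp4a, Gsta and Acot families may also bind close relatives, which was not tested.

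Of 8 listed AHR targets 2 were lower and 0 higher in M8/F8 (median -0.08), where 11.6% and 10.3% of all genes were. The quinone reductase gene Nqo1 had a mean of -0.99 there (limma adjusted p = 0.00465) and fell in males from 3 to 8 wk (-1.19, 0.00228). The other was Tiparp, at -0.51. Cyp1b1 (0.86, 0.0166) and Ugt1a6a (0.35, 0.0183) rose in males from 3 to 8 wk, while Ahr fell. Over that span 2 of the 8 were thus higher and 1 lower in males, near the 21.7% and 20.3% of all genes.

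Ppara, the fatty acid sensor that induces fat oxidation in fasting, rose in females, as read by its brightest probe. The pools were highest in F8, at 0.43 and 0.29, above both M8 pools (0.06 and 0.17), with F3 lowest at -0.20 and -0.21. The F8/F3 arrays read 0.73 and 0.42 (mean 0.58, 1.49-fold, limma adjusted p = 0.0273) and the F8/F4 arrays 0.80 and 0.28 (mean 0.54, 0.0345). The M8/F8 arrays read -0.47 and -0.00, so their mean of -0.24 did not pass (0.318). In males the ratios were 0.23 (M8/M3, 0.328) and 0.07 (M8/M4, 0.912).

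Without a dye term in the model the main probe passed in neither female comparison (adjusted p = 0.0527 in F8/F3 and 0.0666 in F8/F4, limma). The other Ppara probes did not pass in either female comparison. They read 0.65 (limma adjusted p = 0.0877) and 0.27 (0.172) from 3 to 8 wk, against 0.23 (0.598) and 0.36 (0.0824) from 4 to 8 wk. In M8/F8 they read -0.28 (0.494) and 0.11 (0.68). On the last of these probes M8 was the highest group (0.23 and 0.20), above F8 (0.14 and 0.08), and F4 the lowest, unlike on the main probe. Without array 1 or array 2 in turn the main probe read 0.52 (0.188) and 0.64 (0.118) from 3 to 8 wk, then 0.36 (0.299) and 0.72 (0.056) from 4 to 8 wk.

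Among 20 listed PPARα targets, 6 were lower and 2 higher in M8/F8, with a median of -0.01, where 11.6% of all genes were lower and 10.3% higher. The lower ones included Acot3, a peroxisomal acyl-CoA thioesterase (arrays -3.38 and -3.77, mean -3.57, limma adjusted p = 0.000189), and the fatty acid hydroxylases Cyp4a14 (-1.49 and -3.08, mean -2.29, 0.00539) and Cyp4a10 (-1.94 and -2.55, mean -2.25, 0.000842). In males 8 of 20 fell and 2 rose from 3 to 8 wk (20.3% and 21.7% of all genes), with Cyp4a14 at -3.11 (0.00166) and Vnn1, a pantetheinase, at -2.49 (0.0187). In females 1 of 20 fell and 3 rose over the same span (16.6% and 17.0%), among them Acot3 (arrays 1.73 and 1.27, 0.00376). At 4 wk 7 of 20 were higher in males and 1, Acot3, lower (-0.79, 0.0421), where 3.45% of all genes were higher and 4.46% lower. Over all lists 20 genes passed in M4/F4, against 9 with adjustment within comparisons and 3 with the replicate block as well, so at most 3 genes of this list could pass there.

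Pparg, the regulator of fat storage that is most abundant in adipocytes, had the widest range of the 10 genes and was highest in adult males. The pools stood at 1.25 and 0.94 in M8, 0.31 and 0.31 in F8, -0.05 and -0.30 in M3, -0.49 and -0.03 in F3, -0.41 and -0.31 in M4 and -0.62 and -0.60 in F4. M8 lay above F8 and F8 above every pool of younger mice, while M3, F3 and M4 overlapped. The M8/M4 arrays read 1.59 and 1.30, a mean of 1.44 ± 0.20 or 2.72-fold (SE 0.19, limma adjusted p = 0.00384). The M8/M3 arrays read 1.24 and 1.30, a mean of 1.27 or 2.42-fold (0.00623).

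In females Pparg rose from 4 to 8 wk (arrays 0.90 and 0.96, mean 0.93, 1.91-fold, limma adjusted p = 0.0206), and read 0.75 and 0.38 from 3 to 8 wk, a mean of 0.57 that did not pass (0.11). The M8/F8 arrays read 1.01 and 0.59, so that males were higher by 0.80 or 1.74-fold (0.0364). At 3 wk the arrays disagreed in sign, 0.50 and -0.32. Male minus female change was 0.71 from 3 to 8 wk (95% interval of 0.06 to 1.35, adjusted p = 0.231) and 0.51 from 4 to 8 wk (-0.13 to 1.16, 0.485). The probe was spotted 10 times on each array, and the SD between the log2 ratios of its spots was 0.02 to 0.04. Without array 1 or array 2 in turn it read 0.61 (0.258) and 0.98 (0.0893) between the sexes at 8 wk, 1.25 (0.058) and 1.30 (0.0508) in males from 3 wk on, and 0.91 (0.138) and 0.95 (0.12) in females from 4 wk on.

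Because Pparg marks adipocytes, the signals of 5 adipocyte markers (Adipoq, Plin1, Cfd, Lep and Retn) were set beside it channel by channel. In M8 pool 1 their summed signal was 60 to 63 in 3 channels, and Pparg read 1665 to 2006. In M8 pool 2 the summed signal was 741 to 887, and Pparg read 1298 to 1688. The Pparg ranges of these pools overlapped and their adipocyte signals did not. In F4 pool 1 the markers summed to 255 to 282 while Pparg, at 410 to 520, was at the level of the other young pools. Lep was well above background in 0 of the 6 M8 channels and in 0 channels of every other group. Cfd was well above it in 6 of 6 M8 channels and 1 of 6 F8 channels, Retn in 4 of 6 and 0 of 6, Plin1 in 3 of 6 and 0 of 6, and Adipoq in 4 of 6 of each. The part of adipocytes in the Pparg values was not tested.

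**Figure D3:**
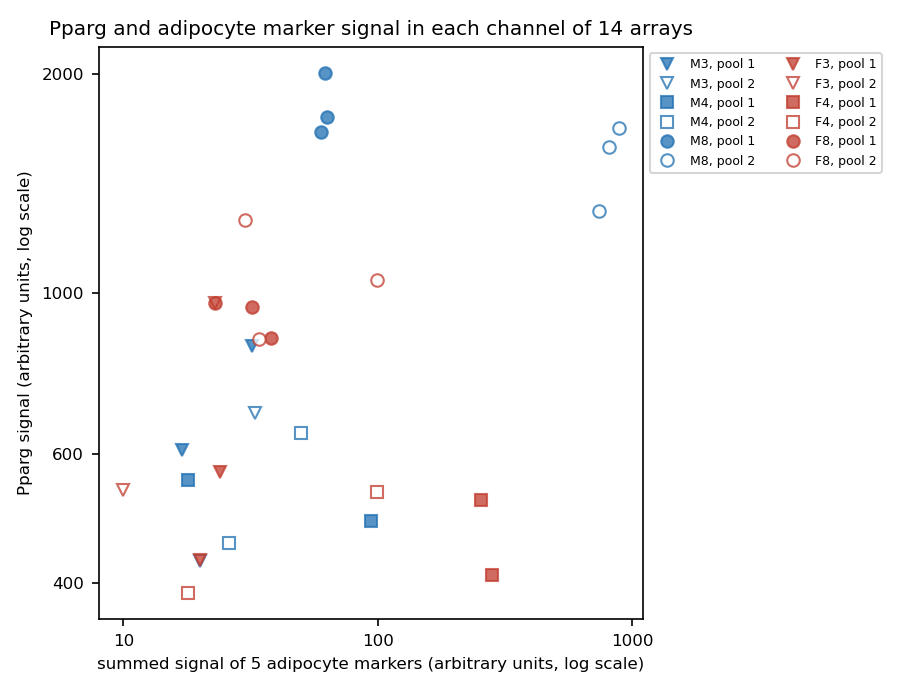
Processed signal of Pparg (vertical, log axis) against the summed processed signal of 5 adipocyte markers (horizontal, log axis) in each of the 28 channels, by group and pool. M8 pool 1, at 60 to 63 on the horizontal axis, reaches 2006 for Pparg, while M8 pool 2, at 741 to 887, reaches 1688.

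Of 8 listed PPARγ targets tested in M8/F8, 1 was higher, the lipase gene Lpl (arrays 0.84 and 1.16, mean 1.00, limma adjusted p = 0.001), and 1 lower, the fatty acid carrier Cd36 (-0.73 and -0.53, mean -0.63, 0.00241). These counts were close to the shares of all genes there, 10.3% higher and 11.6% lower. Lpl fell with age in both sexes, with a 3 to 8 wk ratio of -1.99 in males (0.000123) and -2.95 in females (5.37e-05), while Pparg rose in males.

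Nr1h3, the gene of the oxysterol receptor LXRα, was the steadiest of the 10. It passed in 0 of the 7 comparisons, with means from -0.09 (M4/F4) to 0.06 (M8/M4). Its second probe passed in none either, with means from -0.09 (M8/F8) to 0.18 (F8/F3) and a span of 1.14-fold between groups. Of 10 genes on the list of LXR targets, which counts Nr1h3 itself, 1 was higher and 1 lower in M8/F8, close to the 10.3% and 11.6% of all genes. Abcg8, part of the sterol exporter of the bile canaliculus, read 0.33 there (limma adjusted p = 0.0262) and rose from 3 to 8 wk in males (1.20, 0.000244) and females (0.52, 0.00468), and its partner Abcg5 was lower in M8/F8 at -0.21. Srebf1, the lipogenic transcription factor, fell over that span in both (-0.82, 0.00584, and -0.46, 0.0479).

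Nr1h4, which encodes the bile acid receptor FXR, passed in 0 of 7 comparisons and spanned 1.22-fold. Its largest ratio was -0.30 in M8/M3, with arrays at -0.34 and -0.26 (limma adjusted p = 0.088). After normexp background correction the same comparison passed (-0.33, adjusted p = 0.0443), as it did in the fit of 6 group means (-0.29, 0.015).

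Nr0b2, the gene of the corepressor SHP, was highest in adult males. The pools stood at 0.26 and 0.32 in M8, 0.05 and 0.22 in M4, 0.14 and 0.12 in F4, -0.14 and -0.13 in F8, -0.14 and -0.21 in F3, and -0.18 and -0.32 in M3. M8 lay above M4 and F4 above F8 with no overlap, while M4 overlapped F4 and F3 overlapped M3. The M8/F8 arrays read 0.55 and 0.26 (mean 0.40, 1.32-fold, SE 0.07, limma adjusted p = 0.0082). The M8/M3 arrays read 0.28 and 0.84 (mean 0.56, 1.47-fold, 0.00233).

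In females Nr0b2 did not move from 3 to 8 wk in a way the arrays could show (-0.18 and 0.22, mean 0.02, limma adjusted p of 1) and fell from 4 to 8 wk (-0.47 and -0.09, mean -0.28, 0.0337). Nr0b2 was the 1 member whose 3 to 8 wk change differed between the sexes, by 0.54 (SE 0.09, adjusted p = 0.0274), where 6.52% of all genes tested passed. From 4 to 8 wk the difference was 0.45 (0.0831), 0 of 10 members passed and 2.10% of all genes did. With ratios centred on the median in place of loess, F8/F4 (adjusted p = 0.0757) and the sex difference (0.0698) did not pass. This probe had the strongest dye effect among the main probes, 0.17 on the log2 scale in favour of red, and without a dye term in the model the values kept their size but did not pass (0.221 in M8/F8, 0.0914 in M8/M3, 0.446 in F8/F4 and 0.392 for the sex difference). With the shared pools in a replicate block, F8/F4 had an adjusted p of 0.0544 and the sex difference one of 0.0557. Leaving out 1 array ended the call in M8/F8 (without array 2, 0.38, 0.0726) and in F8/F4 (without array 1 -0.26, 0.199, without array 2 -0.30, 0.147). The sex difference was 0.41 (0.109) without array 2 of M8/M3, 0.50 (0.137) and 0.57 (0.0998) without array 1 and array 2 of F8/F3, and 0.54 (0.0539) without either array of F8/F4.

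**Figure D4:**
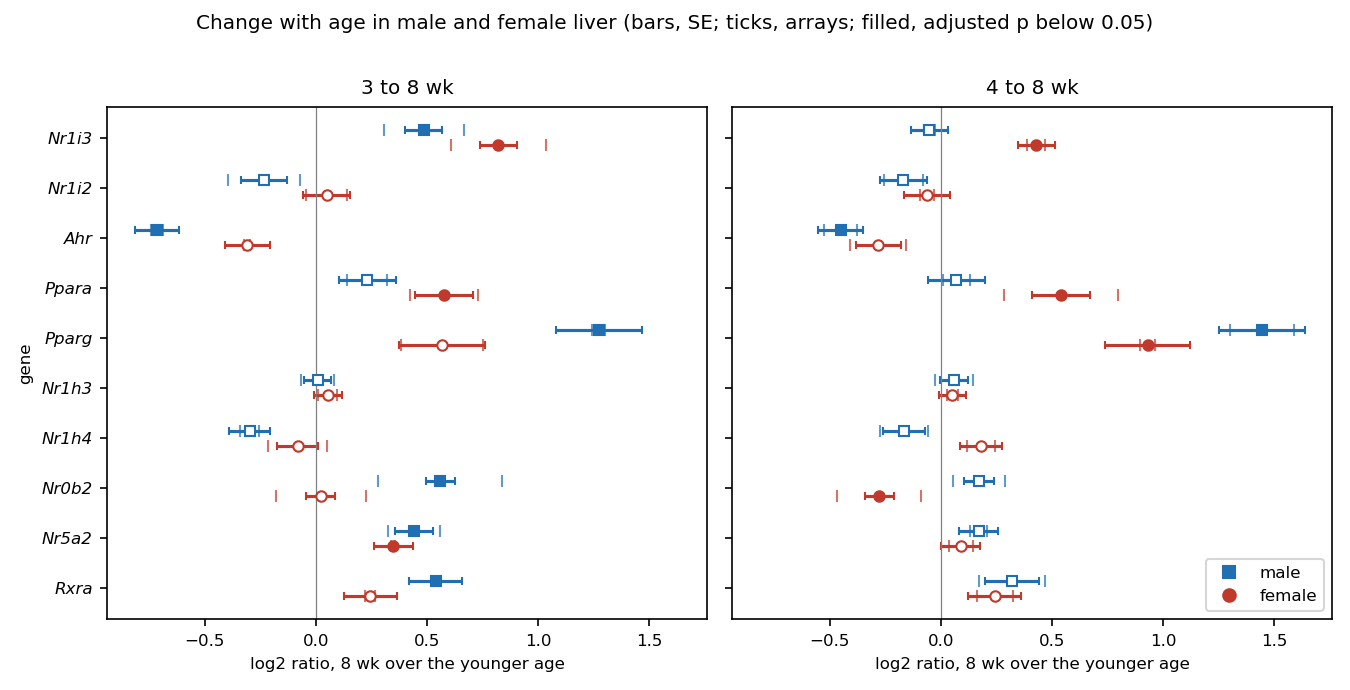
Change of each of the 10 genes with age (log2 ratio, horizontal), from 3 to 8 wk on the left and from 4 to 8 wk on the right, for males (squares) and females (circles), with bars for the SE, small ticks for the single arrays and filled symbols where the change passed. From 3 to 8 wk Nr0b2 stands at 0.56 in males and 0.02 in females, and Pparg at 1.27 and 0.57.

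The plot of age changes sets the sexes side by side for each gene, and the tested difference passed for Nr0b2 from 3 to 8 wk and for no other member in either span. An interaction that did not pass does not show that the sexes changed alike: for Ahr the interval of male minus female change from 3 to 8 wk was -0.74 to -0.07. In the fit of 6 group means the 3 to 8 wk difference also passed for Nr1i3 (-0.36, limma adjusted p = 0.0075), Ahr (-0.44, 0.00749) and Pparg (0.70, 0.0162). The 4 to 8 wk difference passed in that fit for Nr1i3 (-0.46, 0.00383), Ppara (-0.47, 0.0253), Nr1h4 (-0.36, 0.0209) and Nr0b2 (0.43, 0.00196). Beside the ratios of Nr1i2 and Nr1h4 given above, that fit also passed Nr1i3 in M3/F3 (-0.26, 0.0141), Ahr in F8/F3 (-0.29, 0.0218) and F8/F4 (-0.29, 0.0214), Pparg in F8/F3 (0.57, 0.0196), and Nr0b2 (0.16, 0.0473) and Rxra (0.35, 0.0217) in M8/M4.

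Nr5a2, the gene of LRH-1, rose from 3 to 8 wk in both sexes. The M8/M3 arrays read 0.56 and 0.33 (mean 0.44, 1.36-fold, limma adjusted p = 0.0176) and the F8/F3 arrays 0.34 and 0.36 (mean 0.35, 1.27-fold, 0.0417). M8/F8 was -0.06 (0.826). The second probe gave 0.45 in males (0.0212) and 0.26 in females, with arrays at 0.55 and -0.04 (0.133). Without array 1, M8/M3 was 0.27 (0.169), and F8/F3 was 0.32 (0.226) and 0.37 (0.17) without array 1 and array 2 in turn.

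Of 14 bile acid genes under FXR, SHP and LRH-1 that were tested, 8 were higher and 1 lower in M8/M3 (median 0.47), where 21.7% of all genes were higher and 20.3% lower. In F8/F3 7 were higher and 0 lower (median 0.46), where 17.0% and 16.6% of all genes were. From 4 to 8 wk 7 were higher in males (14.8% of all genes) and 6 in females (10.6%), and 0 lower in either (14.8% and 10.7%). Cyp8b1, the enzyme that sets the share of cholic acid, rose from 3 to 8 wk in males (arrays 1.26 and 1.48, mean 1.37, limma adjusted p = 0.00126) and females (0.75 and 0.81, mean 0.78, 0.0108), and the 1 lower gene in males was Slc51b, a bile acid exporter subunit (-1.05, 0.0496). In M8/F8 2 were higher and 4 lower, where 10.3% and 11.6% of all genes were. Cyp7a1, the rate-limiting enzyme of bile acid synthesis, was lower in males at 8 wk (-1.81 and -1.41, mean -1.61, 0.00327) and at 4 wk (-1.56, 0.00372), and Cyp7b1, the oxysterol hydroxylase of the alternative pathway, was higher in males at 8 wk (2.71 and 2.90, mean 2.81, 0.00861).

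Rxra, the shared partner of most of these receptors, was highest in adult males, with pools at 0.19 and 0.47 in M8 and 0.16 and 0.07 in F8, and lowest in M3 at -0.25 and -0.18. It rose from 3 to 8 wk in males (arrays 0.55 and 0.53, mean 0.54, 1.45-fold, limma adjusted p = 0.0267). In M8/F8 its arrays read -0.02 and 0.52 and the mean of 0.25 did not pass (0.249). The second probe rose in all 4 age comparisons, in males by 0.47 from 3 to 8 wk (0.00634) and 0.30 from 4 to 8 wk (0.0328), and in females by 0.40 (0.0114) and 0.33 (0.0231). The main probe read 0.32 (0.14) in males from 4 to 8 wk, and 0.24 (0.259) and 0.24 (0.262) in females. M8/M3 did not pass on the main probe without array 1 (0.59, 0.121) or array 2 (0.49, 0.178), with the shared pools in a replicate block (0.135), or with ratios centred on the median in place of loess (0.42, 0.0908).

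Among 11 partner and related receptors 0 passed in M8/F8 (21.8% of all genes), while 2 were higher and 1 lower in each of the 4 age comparisons. Of all genes 10.6% (F8/F4) to 21.7% (M8/M3) were higher and 10.7% to 20.3% lower in these. Nr1d1 and Nr1d2, the heme-binding clock repressors REV-ERBα and REV-ERBβ, rose from 3 to 8 wk by 2.96 (limma adjusted p = 0.000387) and 3.26 (0.000443) in males and by 3.04 (0.000356) and 3.28 (0.000434) in females. Ppard, the third PPAR, fell in males (-2.13, 0.00184) and females (-2.24, 0.00153), the opposite direction to Pparg in males.

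Of 13 coactivators and corepressors 6 were higher and 2 lower in M8/M3 (21.7% and 20.3% of all genes), and 6 higher and 0 lower in F8/F3 (17.0% and 16.6%). Med1, the mediator subunit that nuclear receptors bind, rose in males by 1.41 (arrays 1.39 and 1.43, limma adjusted p = 0.000284) and in females by 0.43 (0.0224), and was higher in M8 than F8 (1.20 and 0.54, mean 0.87, 0.00146). Ppargc1b, a coactivator of mitochondrial genes, rose by 1.28 in males (0.00493) and 1.20 in females (0.0063), and its relative Ppargc1a was lower in males at 4 wk (arrays -1.19 and -1.02, 0.0143). Tbl1xr1, a corepressor exchange factor, rose by 0.74 (9.59e-05) and 0.48 (0.000284).

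**Figure D5:**
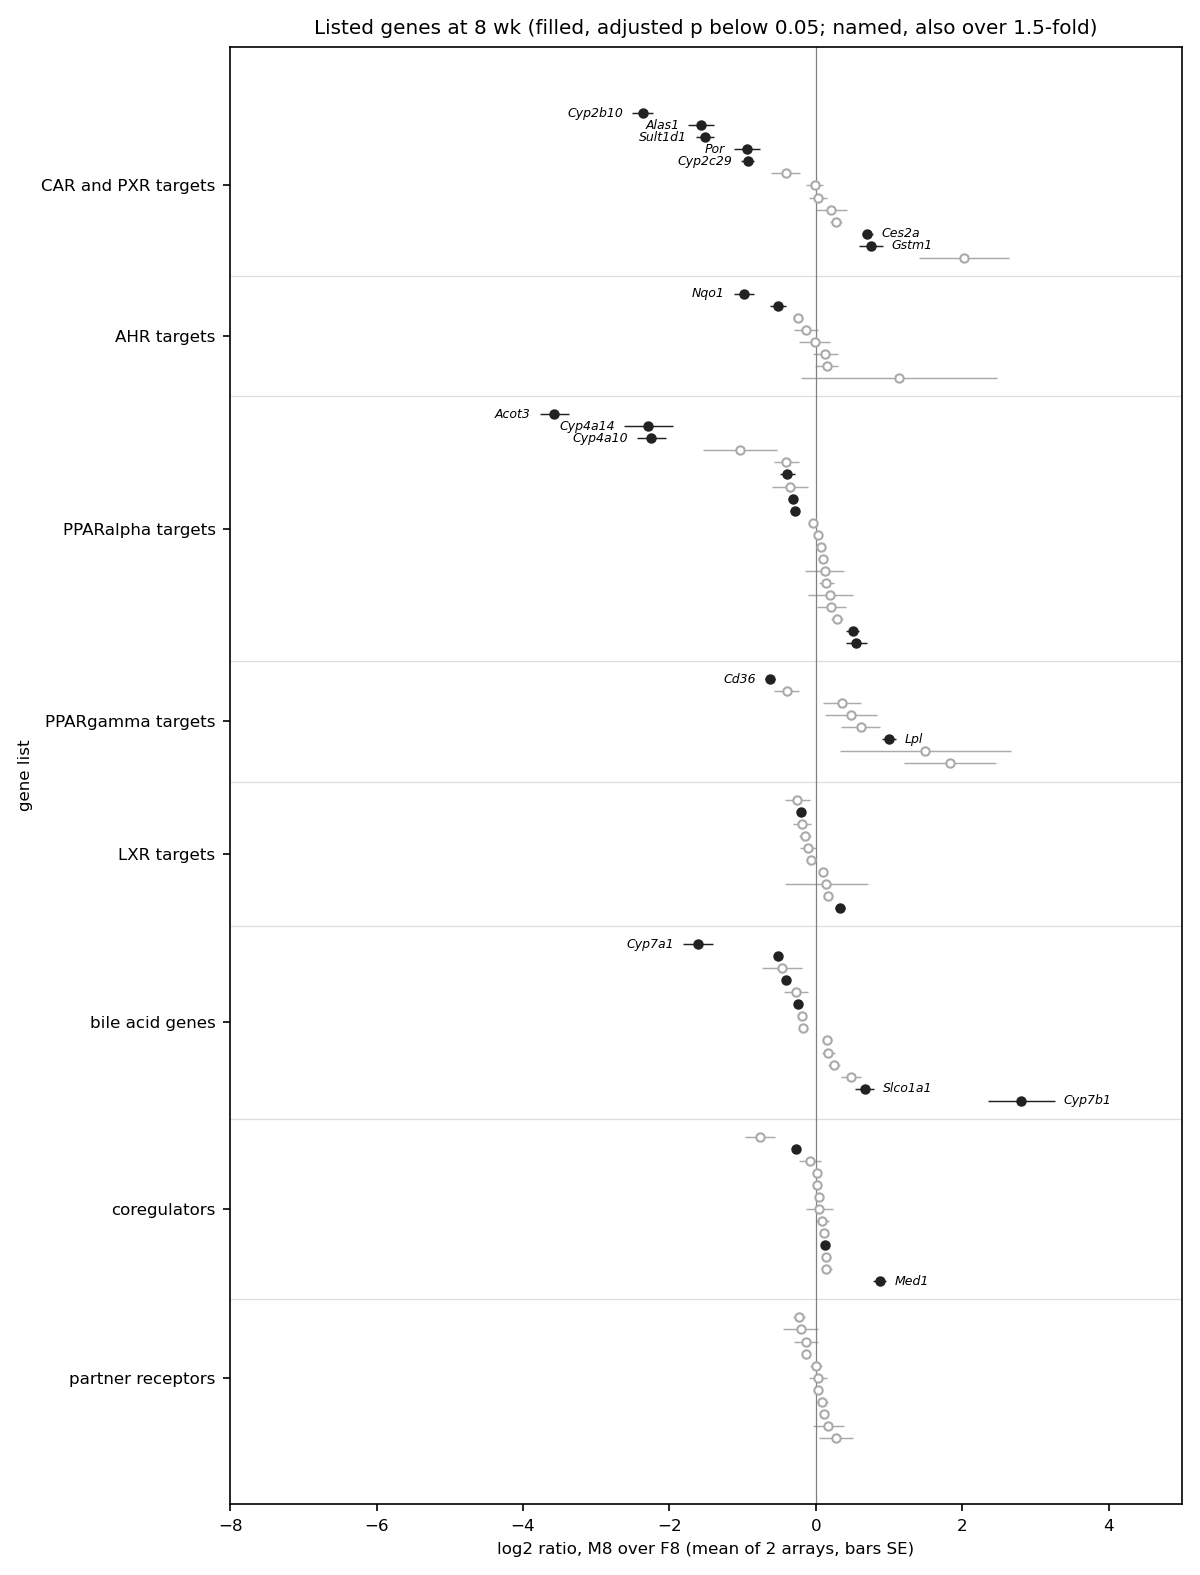
M8/F8 log2 ratio (horizontal) with SE bars for each tested gene on the 8 lists of partner receptors, cofactors and targets (vertical, by list), with genes that passed and were over 1.5-fold apart named. Acot3 lies farthest to the left, at -3.57, and Cyp7b1 farthest to the right, at 2.81, and no partner receptor is named.

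The plot of listed genes by list shows that in adults the sexes differed more in some target genes than in any of the 10 receptor genes, whose largest M8/F8 ratio was 0.80. The lists hold 97 genes, chosen with earlier results of these data known, so the extremes of the 2 sets are not read against each other.

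Markers of other cells, and of hepatocytes, also passed with age. Of all genes 20.3% were lower and 21.7% higher in M8/M3, and 14.8% and 14.8% in M8/M4. In F8/F3 16.6% were lower and 17.0% higher, and in F8/F4 10.7% and 10.6%. Counts near these shares are not read as a change of the cells. Of 8 hepatocyte markers 1 was higher and 2 lower in M8/M3, 1 and 1 in M8/M4, and 2 and 0 in F8/F3 and in F8/F4. All 8 markers of dividing cells were lower at 8 wk in each of the 4 age comparisons, with medians from -3.74 to -2.98. Of 12 clock genes 4 rose and 2 fell in M8/M3 and 6 rose and 2 fell in F8/F3. In M8/F8 1 of them, Per1, passed (-1.20), where 21.8% of all genes did. Of 7 stellate and mesenchymal markers 4 were lower and 0 higher in each age comparison, with medians from -0.49 to -0.25. Their summed signal ran from 35847 to 47969 in M8 channels, below the 54403 to 98690 of M3, while those of F8 (44516 to 67591) and F3 (52314 to 117226) overlapped. Of 5 erythroid markers 3 were lower in each, with medians from -1.18 to -0.96, while 2 were higher in M8/M3, 1 in M8/M4 and 1 in F8/F3. Their summed signal had a median of 47194 in M8 and 69080 in M3, and of 43957 in F8 and 75322 in F3.

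Of 7 sinusoidal endothelial markers males had 3 lower at 8 than at 3 wk and 4 lower at 8 than at 4 wk, females had 3 and 0, and 0 were higher in either sex. These counts and those that follow stand beside the shares of all genes just given. Of 5 bile duct markers 2 were lower in M8/M3 and 1 in each of the other age comparisons. Of 5 B and T cell markers 1 was higher and 2 lower in M8/M3, 1 higher and 1 lower in M8/M4, 1 higher in F8/F3 and 0 either way in F8/F4. The part of these cells, of cell division and of the hour of day in the age changes of the receptor genes was not tested.

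Over the 14 array ratios and 13028 genes, the genes whose pattern was most like that of Nr1i3 were Rabgap1l (Pearson r = 0.98), Tm4sf1 (0.97) and Prom2 (0.97), the last at -2.95 in M8/F8 and 2.42 in F8/F3. Those most like Ahr were Lect2 (0.94), Timm8a1 (0.93) and Zbtb12 (0.92), and those most like Pparg were Phkg2 (0.92), Ccn1 (0.91) and Elk4 (0.91). The arrays were read as sharing pools, so these are descriptions without a test.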

How the data were processed

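Liver RNA of the 6 groups was amplified, labelled with a green or a red Alexa dye and hybridised to Agilent 4x44k arrays, 14 in all, on 4 slides. Per the file headers, the authors extracted spot intensity with Feature Extraction 10.7.1.1 on a design annotated on mm9. They subtracted background and normalised the dyes by linear and LOWESS steps within each array. The deposited log10 ratio of red over green was turned to the first group over the second by the labels' dyes and rewritten as log2. The deposited series table holds the same log10 ratios (largest difference 0). The software's error of each log10 ratio, deposited with it, was used for weighting alone. The methods give the dyes of both M3/F3 arrays the other way round from the labels, which were followed.

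Of 44397 spots per array 43020 were not controls. From 0 to 10 non-uniform spots per array were left out, and spots of a probe were averaged. RefSeq accessions named a gene for 26055 of 39429 probes, and of 169 listed genes 165 were found. limma 3.58.1 (R 4.3.3, data.table version 1.17.8) fitted 7 comparison terms and a dye term. P-values were adjusted over all probes and comparisons, and within each of the 2 sex-by-age contrasts. A gene counted as tested where at least 1 group was well above background on both arrays of a comparison. No named value needed a bound for a group below background. Levels per pool came from a least-squares fit to the ratios.

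Whether a pool was used on several arrays is not stated outright in the sources used here. By the methods' numbers of mice, the pools of 1 comparison took up all mice of a group, so the comparisons drew on the same animals. Differences between arrays 1 and 2, compared along both sides of each closed loop of comparisons, correlated at 0.913 (3 and 8 wk) and 0.904 (4 and 8 wk) over 20480 probes, so the alternative with a replicate block placed the shared pools in the covariance of the arrays. Its pool variance was 4.98 times the array variance. Slides held several comparisons and were tried as a random block. Background correction by normexp (offset 50) used pixel medians, since the files hold no mean signals. Other alternatives were no loess, no dye term, 6 group means, the methods' error-weighted mean, other probes, other thresholds and each array left out.

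The text names the 10 members, up to 4 called genes per list with the largest ratio in any comparison, the 3 genes most like each called member, and others where a count of 5 or fewer asks for it. Cps1, Alb, Tat, Marco, Adgre1, Csf1r, Tiparp, Ugt1a6a, Abcg5 and Per1 are of the last kind. Beyond these, the 5 adipocyte markers are named as a set and Ttr as an example of a hepatocyte marker. The members and lists were chosen with earlier results of these data known. Some items are not reported here, and the lists and their counts leave them out. Procedures were tested on simulated data.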

Additional observations from a re-analysis of the deposited data

Results flagged for a closer look

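The change with age was compared between the sexes for the 10 members and for 25 named genes of the lists, as male minus female change in log2. It passed for 1 member and 9 of the 25 from 3 to 8 wk, and for 0 members and 8 of the 25 from 4 to 8 wk (limma, adjusted within each contrast). Among all genes tested 6.52% and 2.10% passed. The 25 were named for large ratios in comparisons that make up this contrast, so their counts are not read against those shares.

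Nr0b2 differed by 0.54 from 3 to 8 wk, with the male change the higher. Among cofactors, Med1 differed by 0.99 from 3 to 8 wk and 0.92 from 4 to 8 wk, and Tbl1xr1 by 0.26 and 0.45. Cyp2b10, a CAR target, differed by -2.88 and -2.01, that is towards females. The AHR target Nqo1 differed by -1.21 from 3 to 8 wk. Among the PPARα targets Acot3 differed by -4.38 and -3.33 and Cyp4a10 by -2.24 and -2.74, and Cyp4a14 by -2.89 from 4 to 8 wk. Of the PPARγ targets, Lpl was at 0.96 and 1.18 and Cd36 at -0.60 and -0.73. The sterol exporter gene Abcg8 differed by 0.68 from 3 to 8 wk.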

How the results depend on the processing

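Of the 257 alternative values of the 21 member values that passed, 188 still passed, 69 did not and 0 passed with the opposite sign. Of the 1016 alternatives of member values that did not pass, 19 passed, and 38 changed sign where neither value passed. Nr1i3 in M8/F8 and F8/F3 and Pparg in M8/M4 passed in each of their 12, 12 and 11 refits, which leave out the stricter adjustments and fold thresholds, given below as counts. Nr1i3 was under 2-fold apart in both. All 21 still passed with normexp, with the series table, without population outlier spots, with 6 group means and with slides as a random block (slide correlation -0.04), 17 with the replicate block, 16 without loess and 14 without a dye term. The series table holds the same ratios as the main fit, so its 21 passes, counted among the 188, were fixed in advance. Leaving out population outlier spots gave the same range of adjusted p (0.00135 to 0.044, limma). For the Nr0b2 sex difference, refits that left out arrays of other comparisons are counted too. The methods' error-weighted mean at their p threshold of 1e-04 kept 7 of 20. The replicate block ended the calls of Nr1i3 in F8/F4 (adjusted p = 0.0588, limma), Nr0b2 in F8/F4 (0.0544), Rxra in M8/M3 (0.135) and the Nr0b2 sex difference (0.0557), and changed no other member call. The cause of these changes was not tested. With 2 pools per group and no reading of single mice, differences well under 1.5-fold rest on few degrees of freedom.

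Member counts moved as follows. With 6 group means, which like the main fit takes arrays that share pools as independent, 1 passed in M3/F3, 4 in M8/M4 for males, 5 in F8/F3 for females and 4 in each sex-by-age contrast. Smaller moves in that fit gave 5 in M8/F8, 7 in M8/M3 and 5 in F8/F4. Without loess 0 passed in M4/F4, 1 in M8/M4 and 0 in the 3 to 8 wk contrast. Adjustment within each comparison left 0 in M4/F4. Without a dye term 1 passed in F8/F4 and 0 in the 3 to 8 wk contrast. With the replicate block 2 passed in F8/F4 and 0 in the 3 to 8 wk contrast, and with that block and adjustment within comparisons, an alternative added after seeing the data, 0 in M4/F4 and 2 in F8/F4. The error-weighted mean and the 1.5-fold threshold each left 0 in M4/F4, 2 in M8/F8, 2 in M8/M3, and 1 in each of the other age comparisons, and the 2-fold threshold left 1 in each male age comparison and 0 elsewhere. With each array left out in turn, the members passing at 3, 4 and 8 wk between the sexes were 0, 0 to 1 and 1 to 4, those with age in males 2 to 6 from 3 wk and 1 to 2 from 4 wk, those in females 1 to 3 and 0 to 5, and those in the sex-by-age contrasts 0 to 1 and 0.

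Listed partner, cofactor and target genes passed 8, 20 and 30 times between the sexes at 3, 4 and 8 wk, 48 and 39 times with age in males (from 3 and from 4 wk) and 32 and 23 times in females. With 6 group means 13 passed in M3/F3, 41 in M4/F4, and 51 and 39 with age in females. In M3/F3 5 passed without a dye term, 3 by the error-weighted mean, and 0 with adjustment within comparisons, with the replicate block and that adjustment, over 1.5-fold or over 2-fold. In M4/F4 9 passed with adjustment within comparisons, 3 with the replicate block as well, 8 over 1.5-fold and 4 over 2-fold. Over 1.5-fold and 2-fold there were 17 and 8 in M8/F8, 25 and 18 in M8/M4 for males, and in females 18 and 9 from 3 wk and 7 and 6 from 4 wk, with 23 over 2-fold in M8/M3. With each array left out in turn, the counts ran from 4 to 8, 8 to 23 and 18 to 29 between the sexes, from 29 to 49 and 18 to 38 with age in males, and from 17 to 34 and 8 to 25 in females.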
